A study of Mus musculus with 15 samples.

Results

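The comparison set 3 prostate epithelial lines transformed with c-myc against 3 primary control cultures of the same epithelium, as 6 of the 15 arrays in the series, over every gene with a probe set of its own (19938 genes). Members were chosen by sample title. All cells came from the ventral prostate of FVB mice. Control cultures carried no transduced gene and were kept in a primary culture medium for prostate epithelium until the night before harvest, when DMEM with 10% FBS replaced it. The Myc lines, like the 9 NeuT, Ras and Src arrays used below as a further comparison, were stable lines grown in DMEM with 10% FBS. No group had any other treatment, and cells of all groups were harvested at 85 to 90% confluence. Per the series text each oncogene is represented by 3 lines. It does not say whether these came from separate mice or transductions, so the p-values measure only the spread between these samples. Transduction, establishment as a line and culture history differ together between Myc lines and controls and cannot be told apart here. Values are log2 intensities, differences are log2 (Myc minus control) ± SE, and p-values come from limma with Benjamini-Hochberg adjustment over all genes. "Rose" and "fell" refer to an adjusted p under 0.05, and "called" adds at least a 2-fold change.

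Myc is a basic helix-loop-helix transcription factor that pairs with Max and binds the E-box, CACGTG. It is known for raising ribosome production, nucleotide synthesis and cell cycle entry in many cell types, and for lowering a smaller set of genes. In the prostate, the gland is lined by secretory luminal cells over a layer of basal cells, and Myc is a known oncogene of this epithelium.

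The Myc probe set itself did not follow the label. It read 8.81, 8.60 and 8.94 in the Myc arrays and 9.92, 9.82 and 9.38 in controls 1 to 3. All 3 Myc arrays were below all 3 controls, with a difference of -0.92 ± 0.19 (adjusted p = 0.00207). The NeuT, Ras and Src lines averaged 10.97, 8.93 and 10.47. Which bases of the transcript the probe set reads, and whether the transduced gene holds them, is not stated in the sources, and the arrays are called Myc arrays as labelled. Of the 21 measured members of the Myc network, 6 rose and 2 fell, against 15.9% of all genes that rose and 12.7% that fell. Fbxw7, the ubiquitin ligase subunit that marks Myc for destruction, fell (-1.44 ± 0.12), from 10.53, 10.74 and 10.43 in controls 1 to 3 to 9.17, 9.16 and 9.07 in the Myc arrays. Usp28, a deubiquitinase that counters Fbxw7, rose by 0.63 ± 0.10. Mxi1, a Max partner that competes with Myc, rose by 0.61 ± 0.10, and so did Bin1, a protein that binds Myc (0.64 ± 0.08), and Ruvbl1, an ATPase that acts as a Myc cofactor (1.25 ± 0.11). Max read 11.43, 11.44 and 11.35 against 11.17, 11.25 and 11.16 in controls (adjusted p = 0.12), and Mycn and Mycl gave adjusted p-values of 0.986 and 0.238.

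Epithelial transcripts were read in all 6 arrays, but many epithelial markers differed between the groups. Against control, 20 of 40 junction genes, 13 of 18 basal markers and 7 of 19 luminal markers fell, while 2, 1 and 0 rose. Epcam, an epithelial surface protein, read 9.89, 9.75 and 9.85 in the Myc arrays and 9.69, 9.78 and 9.53 in controls 1 to 3, and the groups overlapped. Krt8, a luminal keratin, read between 12.28 and 12.95 in all 6. Pbsn, a secretory product of the mature gland, lay between 2.99 and 3.12 in all 6, at the low end of the array. Summed linear intensity of the 14 leukocyte markers ran from 900 to 1044.4 in Myc arrays and 960.6 to 1091.7 in controls, with Ptprc at 4.75 to 4.82 and 4.74 to 5.18. That of the 15 fibroblast markers ran from 834.3 to 872.7 and from 1019.5 to 1243.5. Of these markers 3 of 15 fell (5 without control 1), against 12.7% of all genes. Col1a1 read 7.06 to 7.17 across both groups, with a difference of -0.04 ± 0.07.

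Control 3 stood apart from the other 2 controls. Controls 1 and 2 had 3 genes at least 2-fold apart (r = 0.997), while control 3 had 682 and 709 genes 2-fold apart from them (r = 0.956 and 0.955). Myc pairs had 15 to 31 such genes (r = 0.994 to 0.996). Of 17 kidney tubule markers, 15 were at least 2-fold higher in control 3 than in the mean of controls 1 and 2. Kap, a kidney androgen-regulated protein, read 4.78, 4.83 and 12.10 in controls 1 to 3, and Umod, the urine protein of the thick ascending limb, 5.70, 5.70 and 11.03. The summed linear intensity of the 17 kidney markers was 938.2 and 992.7 in controls 1 and 2 and 15591.5 in control 3, against 973.8 to 1015.9 in Myc arrays. Endothelial markers followed the same array, at 647.8, 675.1 and 1414.1 in controls 1 to 3. The comparison was therefore repeated against controls 1 and 2 without the 685 genes at least 2-fold higher in control 3.

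**Figure D1:**
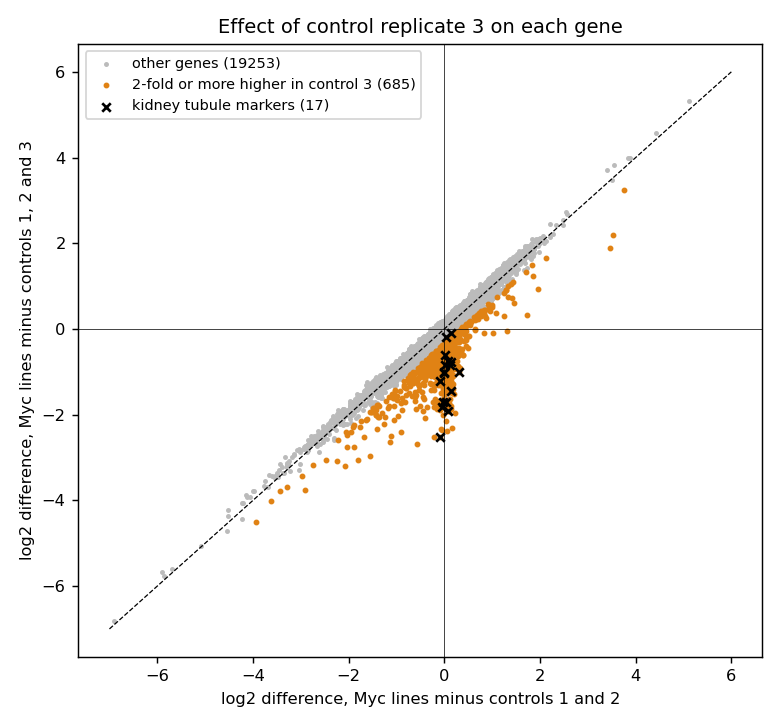
Each point is a gene, with its log2 difference between Myc lines and controls 1 and 2 on the x axis and that against all 3 controls on the y axis. The dashed line marks equal values, orange points are the 685 genes at least 2-fold higher in control 3, and crosses are the 17 kidney tubule markers, which lie near 0 on the x axis and mostly below it on the y axis.

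With all controls, 3166 genes rose (15.9%) and 2533 fell (12.7%), 28.6% in either direction. At the 2-fold minimum 570 were called higher (2.86%) and 718 lower (3.6%), 6.46% in all. Large changes were mostly decreases: at 4-fold or more there were 31 higher and 196 lower genes, and at 16-fold or more 2 and 13. These counts include the genes higher in control 3 and were not repeated with controls 1 and 2. Near the threshold, 161 of the called higher and 127 of the called lower genes lay between 2-fold and 2.2-fold. With controls 1 and 2, 14.6% of 19253 genes rose and 13.1% fell (27.7% together), and 495 were called higher (2.57%) and 662 lower (3.44%), 6.01% in all. Shared calls numbered 461 higher genes, which are 80.9% of the list with all controls and 93.1% of the other list. Shared lower calls numbered 579, or 80.6% and 87.5%. Of the genes dropped for control 3, 7 had been called higher and 104 lower. The median difference over all genes was 0.03 with all controls and 0.02 with controls 1 and 2.

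**Figure D2:**
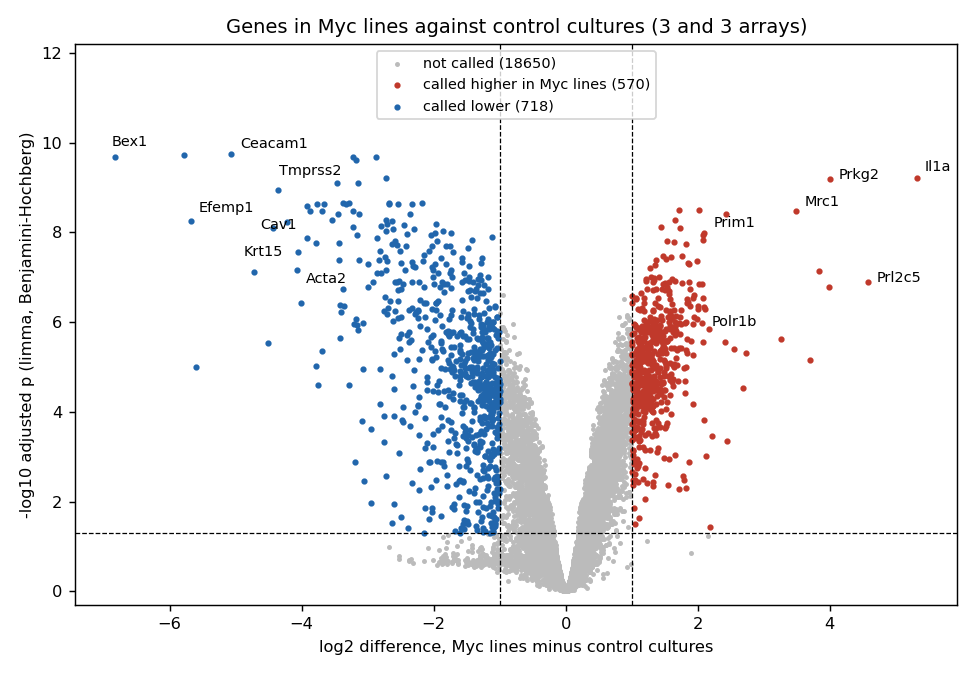
The log2 difference of each gene between Myc lines and controls (x axis) is set against its adjusted p as -log10 (y axis), with dashed lines at a 2-fold change and an adjusted p of 0.05. The 570 red and 718 blue points are called genes, and the decreases reach further from 0 than the increases.

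Genes of ribosome production were higher in the Myc lines. All 46 measured genes of rRNA processing and ribosome assembly rose, with a median of 0.96, and all 46 rose with controls 1 and 2 (median 0.84). Of 24 RNA polymerase I and III genes, 17 rose and 0 fell (median 0.60), and 16 rose with controls 1 and 2. Polr1b, the second-largest subunit of RNA polymerase I, read 8.88, 8.51 and 8.56 in the Myc arrays and 6.72, 6.66 and 6.37 in controls 1 to 3. The groups were far apart, with a difference of 2.07 ± 0.18 (adjusted p = 1.03e-06). Ubtf, the factor that opens rDNA for RNA polymerase I, rose by 0.92 ± 0.08, Twistnb, a further polymerase I subunit, by 1.17 ± 0.10, and Polr3g, a polymerase III subunit, by 1.58 ± 0.18. Among the assembly factors, Nop16 read 10.77, 10.66 and 10.40 in the Myc arrays and 9.24, 9.16 and 8.82 in controls 1 to 3 and rose by 1.54 ± 0.11 (adjusted p = 1.64e-07). Gnl3, the nucleolar GTPase nucleostemin, rose by 1.11 ± 0.11. The H/ACA components Nhp2 and Gar1, which guide pseudouridylation of rRNA, rose by 1.33 ± 0.11 and 0.92 ± 0.08, and Mybbp1a, a nucleolar protein, by 1.44 ± 0.14.

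Nucleotide and polyamine synthesis were higher as well. Of 23 purine and pyrimidine genes 20 rose and 0 fell (median 0.94; 20 of 23 with controls 1 and 2). Dctpp1, which removes surplus dCTP, read 11.0001, 10.76 and 10.95 in the Myc arrays and 9.19, 9.17 and 9.17 in controls 1 to 3. The controls were close to each other and clearly below every Myc array, with a difference of 1.73 ± 0.09 (adjusted p = 7.83e-09). Umps, which makes UMP, rose by 1.44 ± 0.07 (adjusted p = 7.39e-09), from 8.47, 8.37 and 8.36 in controls to 9.88, 9.83 and 9.81. Gart, of purine synthesis, rose by 1.34 ± 0.09, Prps1, which makes the shared precursor PRPP, by 1.31 ± 0.09, and Tyms, thymidylate synthase, by 1.13 ± 0.08. Of 9 polyamine and hypusination genes 6 rose and 1 fell, in both fits. Odc1, the entry enzyme of polyamine synthesis and a textbook Myc target, rose by 0.65 ± 0.08, Srm, spermidine synthase, by 1.43 ± 0.11, and Smox, spermine oxidase, by 0.65 ± 0.12. Eif5a, the only known carrier of hypusine, read 10.95, 10.85 and 11.23 in the Myc arrays and 9.94, 9.83 and 9.35 in controls 1 to 3 and rose by 1.30 ± 0.14 (adjusted p = 8.96e-06), and Dhps, which starts the hypusine modification, rose by 0.58 ± 0.10. Sat1, which acetylates polyamines for breakdown or export, was the member that fell (-1.12 ± 0.16).

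The 250 bases before the gene start were searched for the E-box CACGTG, which reads the same on both strands. Of all 15614 genes with a window, 8.108% held it. It was in 48 of 463 called higher genes (10.37%) and 50 of 550 called lower genes (9.091%). By list it was in 4 of 21 purine and pyrimidine genes, 3 of 20 polymerase I and III genes, 4 of 29 mitochondrial genes, 1 of 7 polyamine genes and 2 of 40 rRNA processing genes (5%). Windows are from RefSeq (GRCm38.p6), and a match is a description of these letters only. The 4 windows shown hold the motif, in capitals, before genes that rose. They were picked by smallest p from the purine and pyrimidine, polymerase, polyamine and rRNA processing lists, among genes whose window holds it. All 4 were thus chosen on their values in these data. Nop2 and Imp4, both rRNA processing factors, rose by 1.31 ± 0.16 and 1.24 ± 0.13. The last base of the motif lies 56 bases before the gene start in Tyms (chr5:30073626-30073875, minus strand) and 69 in Eif5a (chr11:69921387-69921636, minus strand). It lies 55 bases before the gene start in Nop2 (chr6:125131633-125131882, plus strand) and 116 in Imp4 (chr1:34439579-34439828, plus strand). Sequences are given 5′ to 3′ on the strand of the gene.
Tyms: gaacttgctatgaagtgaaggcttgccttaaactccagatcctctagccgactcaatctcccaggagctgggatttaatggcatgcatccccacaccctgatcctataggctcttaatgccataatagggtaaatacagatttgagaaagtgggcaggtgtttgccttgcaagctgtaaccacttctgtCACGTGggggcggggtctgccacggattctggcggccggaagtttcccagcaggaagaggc
Eif5a: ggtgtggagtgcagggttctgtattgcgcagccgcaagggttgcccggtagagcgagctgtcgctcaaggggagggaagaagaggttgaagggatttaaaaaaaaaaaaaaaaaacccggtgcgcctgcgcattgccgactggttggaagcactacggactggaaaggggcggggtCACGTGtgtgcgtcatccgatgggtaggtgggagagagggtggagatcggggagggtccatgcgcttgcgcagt
Nop2: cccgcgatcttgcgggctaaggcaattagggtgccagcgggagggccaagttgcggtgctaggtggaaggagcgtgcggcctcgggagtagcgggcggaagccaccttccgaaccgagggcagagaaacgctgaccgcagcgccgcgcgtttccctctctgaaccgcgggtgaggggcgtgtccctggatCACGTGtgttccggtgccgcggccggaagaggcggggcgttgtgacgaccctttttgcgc
Imp4: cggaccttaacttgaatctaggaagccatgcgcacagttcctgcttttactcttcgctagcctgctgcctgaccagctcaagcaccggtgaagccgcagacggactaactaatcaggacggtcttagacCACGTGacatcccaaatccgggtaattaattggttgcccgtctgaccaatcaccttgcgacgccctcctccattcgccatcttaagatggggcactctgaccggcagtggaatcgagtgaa

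Mitochondrial and transport genes rose with them. Of 31 genes of mitochondrial import and gene expression 26 rose and 0 fell (median 0.51), and 25 with controls 1 and 2. Timm9, Timm13 and Timm8a1, small chaperones of the intermembrane space, rose by 1.09 ± 0.12, 0.72 ± 0.08 and 0.85 ± 0.07. Mrpl3, a mitochondrial ribosomal protein, read 8.72, 8.67 and 8.70 in the Myc arrays and 7.78, 7.80 and 7.71 in controls 1 to 3 and rose by 0.93 ± 0.08 (adjusted p = 7.62e-07), and C1qbp, a matrix protein, rose by 0.85 ± 0.09. Of 20 nutrient transporters 13 rose and 0 fell; with controls 1 and 2, 13 rose and 1 fell. Slc16a1, the lactate carrier MCT1, read 8.99, 8.76 and 8.15 in the Myc arrays and 6.72, 6.44 and 6.24 in controls 1 to 3 and rose by 2.17 ± 0.19 (adjusted p = 1.46e-06), 4.5-fold. Tfrc, the transferrin receptor for iron, rose by 1.64 ± 0.18, and the amino acid carriers Slc7a5 and Slc1a5 by 1.23 ± 0.15 and 1.21 ± 0.13.

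Translation genes gave a less even picture. Of 23 initiation genes 16 rose and 0 fell (median 0.43), and 13 with controls 1 and 2, while a fit of the Myc and control arrays alone left 9. Eif1ad, a relative of initiation factor 1A, read 10.32, 10.31 and 10.47 in the Myc arrays and 8.38, 8.47 and 8.18 in controls 1 to 3. Every Myc array was far above every control, with a difference of 2.02 ± 0.09 (adjusted p = 3.16e-09). Eif2b1 and Eif2b4, of the exchange factor for eIF2, rose by 0.71 ± 0.10 and 0.74 ± 0.10, and Eif4ebp1, an inhibitor of cap-dependent initiation, by 0.63 ± 0.09. Of 18 aminoacyl-tRNA synthetases 13 rose, but 8 without control 3, 8 without Myc 1 and 8 without Myc 2. Farsa, Vars and Hars rose by 0.92 ± 0.13, 0.91 ± 0.12 and 0.77 ± 0.09. In the list of chaperonin and nuclear transport genes 18 of 22 rose (15 with controls 1 and 2). The pore proteins Nup43 and Nup107 rose by 1.45 ± 0.15 and 1.40 ± 0.13, and the exporter Cse1l by 0.90 ± 0.10.

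DNA replication and mitosis genes rose almost without exception. All 29 replication genes rose (28 with controls 1 and 2; median 1.21), as did all 22 mitosis genes in both fits (median 1.21). Prim1, the catalytic primase subunit, read 10.54, 10.54 and 10.46 in the Myc arrays and 8.52, 8.60 and 8.10 in controls 1 to 3. The Myc arrays were close together and all above the controls, with a difference of 2.10 ± 0.11 (adjusted p = 1.01e-08). Pola2, of the same polymerase, rose by 1.94 ± 0.14 (adjusted p = 2.51e-07). Fen1, the flap nuclease, and Gmnn, the licensing inhibitor geminin, rose by 1.53 ± 0.11 and 1.48 ± 0.10. Incenp, Aurkb and Birc5, members of the chromosomal passenger complex, rose by 1.75 ± 0.12, 1.51 ± 0.14 and 1.22 ± 0.08, and Nuf2, of the kinetochore, by 1.47 ± 0.14.

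Of 24 G1/S genes 16 rose and 2 fell (14 and 3 with controls 1 and 2). Ccna2 and Cdk1 rose by 1.28 ± 0.13 and 1.06 ± 0.12, Cks2 by 1.06 ± 0.08, and Skp2, the ligase subunit that targets p27, by 0.91 ± 0.11. Both members that fell belong to the pocket proteins that restrain E2F. Rb1 read 7.47, 7.04 and 6.99 in the Myc arrays and 8.12, 8.20 and 8.66 in controls 1 to 3 and fell (-1.16 ± 0.17, adjusted p = 1.32e-04). Rbl1, p107, fell (-0.77 ± 0.16, adjusted p = 0.00191), while the NeuT, Ras and Src lines averaged 8.41, 8.78 and 9.01, above controls at 7.59. The 6 CDK inhibitors gave few changes. Cdkn2c (p18) rose by 0.75 ± 0.18 (adjusted p = 0.00573). The Cdkn2a probe set, which serves a locus that makes p16 and p19Arf, read 6.63, 6.25 and 6.52 in the Myc arrays and 5.95, 5.95 and 5.96 in controls 1 to 3 and rose by 0.51 ± 0.17 (adjusted p = 0.0363), a call that is lost with controls 1 and 2 only and in other alternatives. Cdkn1b (p27) read 7.92, 7.68 and 8.25 in the Myc arrays and 8.21, 8.35 and 9.82 in controls 1 to 3 and did not pass the test (adjusted p = 0.068), with control 3 far above the others. It passed without control 1 (-1.14, adjusted p = 0.0197), without control 2 (-1.07, adjusted p = 0.0378) and among genes at or above the median level (adjusted p = 0.0379), and 2 CDK inhibitors fell without control 2, against 0 with all arrays. Cdkn2b, whose groups overlapped, gave an adjusted p of 0.615.

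Of 17 genes known as repressed by Myc, 7 fell and 0 rose, against 12.7% of all genes that fell. Thbs1, thrombospondin 1, an inhibitor of vessel growth, read 9.35, 9.25 and 9.09 in the Myc arrays and 12.05, 12.06 and 11.56 in controls 1 to 3 and fell (-2.66 ± 0.20, adjusted p = 3.35e-07). Clu, the secreted chaperone clusterin, fell from 11.75, 11.79 and 11.37 to 8.15, 7.83 and 8.84 (-3.36 ± 0.26). The stress genes Gadd45a and Gadd45g fell (-1.32 ± 0.14 and -0.64 ± 0.12), as did Ndrg2 (-1.10 ± 0.20). Apoptosis and p53 lists moved less with all controls. Of 21 apoptosis regulators 2 rose and 4 fell. With controls 1 and 2, 2 of 20 rose and 6 fell, against 14.6% and 13.1% of all genes. Birc3, an inhibitor of cell death, was at -1.78 ± 0.16, Casp8, the initiator caspase, at -0.68 ± 0.15, and Bak1 at -0.60 ± 0.15. Both apoptosis regulators that rose with all controls, Bcl2 and Bbc3, lose the call in some alternatives. Without control 2 the count of rises is 0. Of 19 p53 targets 3 rose, among them Aen (0.75 ± 0.11) and Zmat3 (0.68 ± 0.17), and 2 fell (1 without control 1), shares near the 15.9% and 12.7% of all genes.

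Serine and one-carbon metabolism rose in 11 of 15 genes and fell in 2; with controls 1 and 2, 9 of 13 rose and 0 fell. Psat1, of serine synthesis, read 10.18, 9.95 and 9.56 in the Myc arrays and 8.001, 7.95 and 7.67 in controls 1 to 3 and rose by 2.02 ± 0.14 (adjusted p = 1.42e-07). The mitochondrial folate enzymes Shmt2, Mthfd1l and Mthfd2 rose by 1.64 ± 0.13, 1.60 ± 0.13 and 0.90 ± 0.19, the folate carrier Slc25a32 by 1.14 ± 0.11 and methionine synthase, Mtr, by 1.06 ± 0.13. In the list of amino acid stress genes, which shares Psat1 and Mthfd2, 7 of 15 rose and 5 fell, 3 without Myc 1, Myc 2 or Myc 3. Asns, asparagine synthetase, rose by 0.95 ± 0.15 and Atf4, the factor that drives this response, by 0.38 ± 0.10. Ddit3 (CHOP) and Nupr1, which are tied to prolonged stress, fell, with differences of -1.02 ± 0.14 (adjusted p = 5.13e-05) and -2.44 ± 0.16 (adjusted p = 7.03e-08). Glycolysis gave 8 of 16 genes that rose, but between 3 (without Myc 1) and 6 (without control 3) when single arrays were left out: 4 without control 1, 4 without control 2 and 5 without Myc 2.

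Of 14 fatty acid synthesis genes 7 rose and 3 fell, against 15.9% and 12.7% of all genes. With controls 1 and 2, 6 of 12 rose and 2 fell. Members called higher at 2-fold or more numbered 4 with all controls and 2 with controls 1 and 2. Acly, Acaca and Fasn, which lead from citrate to palmitate, rose by 1.19 ± 0.16, 1.12 ± 0.19 and 1.11 ± 0.15, and the elongase Elovl6 read 10.35, 10.30 and 9.95 in the Myc arrays and 8.58, 8.19 and 8.97 in controls 1 to 3 and rose by 1.62 ± 0.20 (adjusted p = 2.70e-05). Scd1, the desaturase that follows, went the other way: it read 4.79, 5.63 and 6.22 in the Myc arrays and 8.96, 8.72 and 10.06 in controls 1 to 3. All Myc arrays were well below the lowest control, with a difference of -3.70 ± 0.38 (adjusted p = 4.48e-06). Against controls 1 and 2, which Scd1 did not enter because it was higher in control 3, the plain difference was -3.29. Me1, malic enzyme, which supplies NADPH, fell (-1.28 ± 0.09). Of 19 cholesterol genes 11 rose and 1 fell; 7 rose without Myc 1 and 8 with controls 1 and 2. Idi1, isopentenyl diphosphate isomerase, rose by 1.57 ± 0.30, Sqle, squalene epoxidase, by 0.90 ± 0.18, Lss, lanosterol synthase, by 0.85 ± 0.14 and Pmvk by 0.74 ± 0.12. Tm7sf2, a sterol reductase, fell (-0.62 ± 0.08).

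Basal markers fell in 13 of 18 genes and rose in 1 (14 and 1 with controls 1 and 2; median -0.74). Krt15, a basal keratin, read 6.17, 6.05 and 6.22 in the Myc arrays and 10.37, 10.37 and 9.87 in controls 1 to 3 and fell (-4.05 ± 0.24, adjusted p = 2.77e-08), 16.6-fold. Krt5 and Krt14, the keratin pair of basal cells, behaved unevenly: Krt5 fell (-1.73 ± 0.14), to 9.40, 9.29 and 8.99, and Krt14, chosen after its values were seen, read 10.91, 10.98 and 10.91 in the Myc arrays and 11.85, 11.84 and 11.501 in controls 1 to 3 and fell (-0.80 ± 0.15). Trp63, the basal lineage factor, read 5.85, 6.21 and 6.10 in the Myc arrays and 7.95, 8.05 and 7.55 in controls 1 to 3 and fell (-1.80 ± 0.12, adjusted p = 1.38e-07), and Dsg3, a desmosomal cadherin, fell (-2.79 ± 0.18). The member that rose was the Notch ligand Jag2 (1.00 ± 0.11). Luminal and secretory markers fell in 7 of 19 genes and rose in 0 (8 of 17 fell with controls 1 and 2). Tmprss2, an androgen-regulated protease, read 5.52, 5.59 and 5.30 in the Myc arrays and 8.51, 8.47 and 8.86 in controls 1 to 3 and fell (-3.14 ± 0.12, adjusted p = 7.73e-10). Psca, a stem cell antigen of the prostate, fell (-2.71 ± 0.17), Acpp, prostatic acid phosphatase, (-2.09 ± 0.20), Prom1 (-1.89 ± 0.18) and Foxa1, a luminal lineage factor, (-0.74 ± 0.08). Summed linear intensity was 7093 to 8559.1 in Myc arrays and 13864.8 to 19246.2 in controls for the basal list, and 17937 to 19124.5 and 28390.9 to 29191.9 for the luminal list. Fewer cells of a type and less RNA per cell cannot be told apart in these bulk arrays.

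Cell junction genes fell in 20 of 40 and rose in 2, 1 without control 2 (25 and 1 of 39 with controls 1 and 2; median -0.47). Cdh1, E-cadherin, read 9.51, 9.53 and 9.70 in the Myc arrays and 11.30, 11.33 and 10.86 in controls 1 to 3 and fell (-1.58 ± 0.13, adjusted p = 7.84e-07). Cldn1, a tight junction protein, read 8.13, 8.81 and 8.36 in the Myc arrays and 10.60, 10.58 and 10.18 in controls 1 to 3 and fell (-2.02 ± 0.21, adjusted p = 6.74e-06). Jup (plakoglobin), Spint2 (a protease inhibitor) and Dsc3 (a desmosomal cadherin) fell, with differences of -1.27 ± 0.15, -1.19 ± 0.10 and -2.28 ± 0.19, and Cldn6, a claudin of embryonic epithelium, rose by 1.04 ± 0.17. Ceacam1, an adhesion molecule of epithelia, read 4.85, 4.89 and 4.97 in the Myc arrays and 10.06, 9.93 and 9.92 in controls 1 to 3 and fell (-5.07 ± 0.15, adjusted p = 1.78e-10), 33.6-fold. Upk1b, a uroplakin, and Rassf9 fell, with differences of -3.79 ± 0.21 and -4.22 ± 0.21.

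Mesenchymal genes fell rather than rose: 10 of 20 fell and 2 rose (10 and 1 of 18 with controls 1 and 2). Snai2, a repressor of E-cadherin, read 6.12, 5.93 and 5.81 in the Myc arrays and 8.69, 8.80 and 8.50 in controls 1 to 3 and fell (-2.71 ± 0.13), and Sparc, a matrix protein, fell (-2.64 ± 0.13, adjusted p = 5.49e-09), from 11.46, 11.52 and 11.21 to 8.92, 8.89 and 8.46. Vim (vimentin) and Mmp14 fell, with differences of -1.57 ± 0.09 and -1.21 ± 0.15, while S100a4, a calcium-binding protein, rose by 1.74 ± 0.15. Smooth muscle markers fell in 6 of 12 genes (7 with controls 1 and 2). Acta2, smooth muscle actin, read 6.07, 6.06 and 6.199 in the Myc arrays and 10.12, 10.54 and 9.88 in controls 1 to 3, Tagln fell (-3.14 ± 0.19, adjusted p = 4.06e-08), Myl9 (-2.63 ± 0.31), Tpm2 (-2.12 ± 0.16) and Cald1 (-1.08 ± 0.13). Their summed linear intensity was 2465.8 to 2735.1 in Myc arrays and 6245 to 8917.6 in controls. Des and Myh11, defining markers of mature smooth muscle, read 5.81 to 5.96 and 6.10 to 6.24 in Myc arrays and 5.73 to 5.83 and 6.26 to 6.34 in controls, under the median gene value of 6.47. What part other cells in the control cultures have in these decreases was not tested.

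Matrix and protease genes followed. Over all genes 15.9% rose and 12.7% fell with all controls. Of 37 matrix genes 3 rose and 13 fell (2 and 12 of 36 with controls 1 and 2). Fbln5, an elastic fibre protein, fell (-0.99 ± 0.09), Col12a1 (-1.25 ± 0.12), Nid1 (-1.23 ± 0.15) and Lox, which crosslinks collagen, (-1.83 ± 0.26). Fbln2 rose from 6.93, 6.85 and 6.51 to 8.95, 8.94 and 8.64 (2.08 ± 0.11). The largest positive difference in the list was 3.25 with all controls. It was 1.95 with controls 1 and 2, where genes higher in control 3 were dropped. Of 17 integrins 6 fell and 0 rose; with controls 1 and 2, 7 of 15 fell and 1 rose. Itgb6, an epithelial subunit that activates TGF-beta, read 7.65, 7.67 and 7.45 in the Myc arrays and 9.95, 10.06 and 9.83 in controls 1 to 3 and fell (-2.35 ± 0.11, adjusted p = 3.91e-09). Itga2 and Itgav fell, with differences of -1.16 ± 0.17 and -0.72 ± 0.13. Of 22 metalloproteinases, plasminogen system genes and inhibitors 11 fell (14 with controls 1 and 2) and 0 rose. Adamts5, an aggrecanase, fell (-2.41 ± 0.14, adjusted p = 1.98e-08), Mmp12 (-1.32 ± 0.18) and Mmp7 (-1.01 ± 0.12). Timp3, the matrix-bound inhibitor, read 5.73, 6.03 and 5.50 in the Myc arrays and 10.26, 10.32 and 10.83 in controls 1 to 3.

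**Figure D3:**
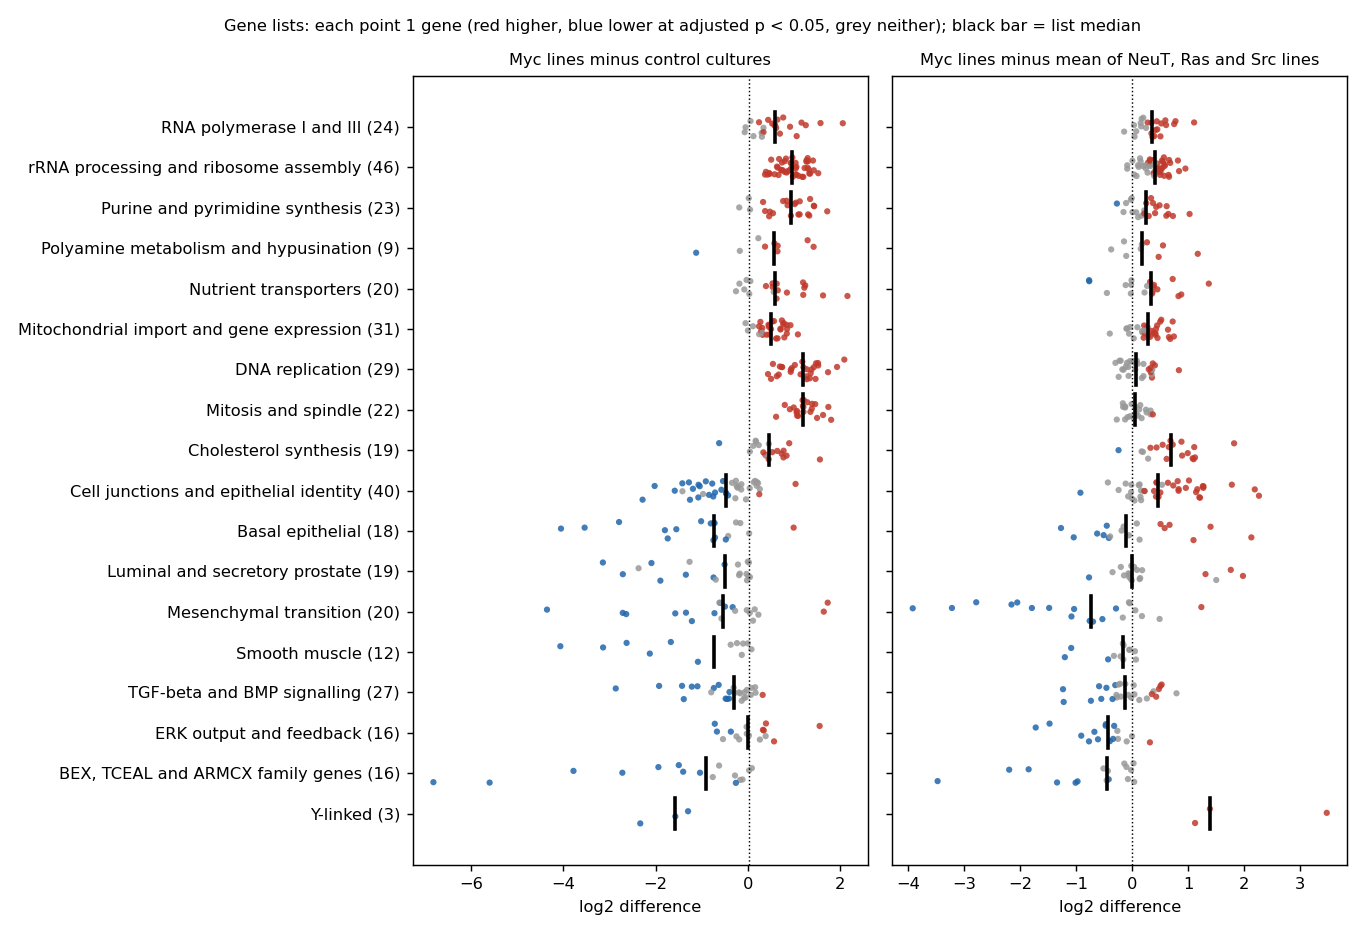
Each point is a gene of a list, with the number measured in brackets, and the x axis gives its log2 difference to controls (left) or to the mean of the NeuT, Ras and Src lines (right). Black bars are list medians and dotted lines the median of all genes. Growth and cell cycle lists lie to the right of 0 on the left, where replication and mitosis have medians of 1.21 and 1.21, against 0.06 and 0.05 on the right.

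Genes of the interleukin 1 family split evenly: 5 of 14 rose and 5 fell, in both fits. Over all genes 15.9% rose and 12.7% fell with all controls. Il1a, the ligand made by epithelia, read 11.04, 11.15 and 11.44 in the Myc arrays and 6.37, 5.82 and 5.46 in controls 1 to 3, 40.1-fold higher. Il1rn, the receptor antagonist, rose by 0.78 ± 0.14 and Il1rap, the shared receptor chain, by 0.48 ± 0.11. Among those that fell, Il33 read 4.88, 5.36 and 5.72 in the Myc arrays and 8.23, 8.10 and 7.78 in controls 1 to 3 (-2.72 ± 0.22, adjusted p = 6.72e-07), Il18 fell (-1.34 ± 0.24) and Il18r1, its receptor, (-1.71 ± 0.23). Of 27 cytokine and chemokine genes 8 rose and 6 fell (8 and 6 of 26 with controls 1 and 2). The neutrophil-attracting chemokines Cxcl1, Cxcl2 and Cxcl3 rose together. Cxcl2 read 8.97, 9.70 and 9.74 in the Myc arrays and 6.97, 6.86 and 6.39 in controls 1 to 3 and rose by 2.73 ± 0.28 (adjusted p = 4.80e-06). Cxcl3 read 9.76, 10.63 and 10.95 in the Myc arrays and 8.48, 7.98 and 7.54 in controls 1 to 3 and rose by 2.45 ± 0.42 (adjusted p = 4.35e-04). Cxcl1 rose by 1.22 ± 0.16, Il23a by 1.98 ± 0.17 and Il24, of the interleukin 10 family, by 2.12 ± 0.40. Osmr, the oncostatin M receptor, read 5.53, 5.35 and 5.22 in the Myc arrays and 8.23, 8.20 and 7.72 in controls 1 to 3 and fell (-2.69 ± 0.21, adjusted p = 4.86e-07), and its partner Il6st (gp130) fell (-0.97 ± 0.11). Ccl5 and Cxcl15 fell, with differences of -1.71 ± 0.10 and -1.90 ± 0.21, and Tnf (-0.71 ± 0.17).

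Interferon response genes had a low median (-0.55), but 4 of 22 fell, against 12.7% of all genes, and 1 rose, or 0 with controls 1 and 2 or without control 2. A fit of the compared groups alone gave 11 that fell. Ifit2 read 5.07, 5.22 and 5.195 in the Myc arrays and 7.80, 7.61 and 7.69 in controls 1 to 3, and Ddx58 (the RNA sensor RIG-I) read 7.24, 7.11 and 6.98 in the Myc arrays and 9.81, 9.89 and 9.43 in controls 1 to 3 and fell (-2.60 ± 0.33, adjusted p = 3.14e-05). Ifih1, the sensor MDA5, fell (-2.03 ± 0.56). Of 12 genes of MHC class I presentation 1 rose, the proteasome subunit Psmb10 (0.62 ± 0.15), and 2 fell, 1 without control 1, against 15.9% of all genes that rose and 12.7% that fell, so the counts do not set the list apart. Ubd, a ubiquitin-like modifier induced by inflammation, fell (-3.92 ± 0.17, adjusted p = 2.61e-09). In the TNF receptor superfamily 3 of 22 rose and 6 fell, against the same 15.9% and 12.7% of all genes. Tnfrsf26, a decoy-type receptor, read 10.38, 10.67 and 10.01 in the Myc arrays and 6.67, 6.35 and 6.09 in controls 1 to 3; without Myc 1 or Myc 2 a single member rose. Cd40, Tnfrsf18 and Tnfsf10 (TRAIL) fell, with differences of -0.55 ± 0.12, -0.80 ± 0.12 and -0.96 ± 0.16.

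Over all genes 15.9% rose and 12.7% fell, and with controls 1 and 2, 14.6% and 13.1%. Among signalling pathways, of 31 EGF, FGF, IGF and MET ligands and receptors 10 fell and 1 rose (9 and 0 of 26 with controls 1 and 2). Egfr read 8.49, 8.43 and 8.32 in the Myc arrays and 9.72, 9.82 and 9.24 in controls 1 to 3 and fell (-1.18 ± 0.16, adjusted p = 5.07e-05). Fgfr2, the receptor for stromal FGFs, read 5.13, 4.999 and 5.05 in the Myc arrays and 7.06, 7.02 and 6.66 in controls 1 to 3 and fell (-1.85 ± 0.10, adjusted p = 9.13e-09), and Igf1 and Igfbp2 fell, with differences of -0.70 ± 0.10 and -1.16 ± 0.10. Of 27 TGF-beta and BMP genes 12 fell (7 without Myc 3) and 1 rose (0 with controls 1 and 2 or without control 2). Tgfb2 and Tgfb3, ligands, fell, with differences of -2.86 ± 0.15 and -1.42 ± 0.16, Smad3, their transducer, (-1.21 ± 0.15), Fst, the activin antagonist follistatin, (-1.92 ± 0.26) and Ccn2, a target, (-1.39 ± 0.17). Of 40 Wnt genes 12 fell and 4 rose (12 and 3 of 38 with controls 1 and 2). The share of Wnt genes that rose was below that of all genes. The receptors Fzd3 and Fzd7 fell, with differences of -2.41 ± 0.13 (adjusted p = 1.06e-08) and -2.02 ± 0.13 (adjusted p = 7.03e-08), Lgr4 (-1.96 ± 0.15), the ligand Wnt5a (-1.20 ± 0.15) and the transcription factor Tcf7l2 (-1.04 ± 0.10). Znrf3, a ligase that removes Frizzled receptors, rose by 1.09 ± 0.10. Of 18 Notch genes 5 rose and 1 fell, a share of decreases below that of all genes. Rbpj, the DNA-binding partner of Notch, was at 1.01 ± 0.12, the feedback gene Nrarp at 0.87 ± 0.18 and Notch2 at -0.48 ± 0.10.

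In the ERK list 5 of 16 genes rose and 3 fell, but 2 rose without control 2 and 2 without Myc 3. Fosl1, a target of sustained ERK activity, rose by 1.56 ± 0.12 (adjusted p = 2.39e-07), and Dusp6, the ERK phosphatase, fell (-0.71 ± 0.12, adjusted p = 5.14e-04). Of 16 immediate early and heat shock genes 3 rose and 3 fell, against 15.9% of all genes that rose and 12.7% that fell. Jun was at -1.23 ± 0.11 and Hspb1, a small heat shock protein, at -2.54 ± 0.19, from 10.86, 10.90 and 10.54 to 8.21, 7.99 and 8.46. Of 15 hypoxia targets 4 rose and 5 fell, against the same shares of all genes. Ero1a rose by 1.11 ± 0.12 and Egln3 by 0.87 ± 0.18, while Adm, Kdm3a and Bnip3l fell, with differences of -1.18 ± 0.22, -0.81 ± 0.11 and -0.44 ± 0.11.

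Among the X-linked BEX, TCEAL and ARMCX genes, which belong to a shared gene cluster, 9 of 16 fell and 0 rose (6 of 14 with controls 1 and 2). Bex1 read 4.18, 3.76 and 4.39 in the Myc arrays and 10.91, 11.13 and 10.75 in controls 1 to 3, 113-fold lower, and Armcx3, a mitochondrial outer membrane protein, read 4.91, 4.96 and 4.75 in the Myc arrays and 10.57, 10.57 and 10.29 in controls 1 to 3. Tceal8 fell (-1.49 ± 0.16, adjusted p = 6.21e-06) and Armcx1 (-1.40 ± 0.10, adjusted p = 1.26e-07). Imprinted genes rose in 4 of 24 and fell in 7, against 15.9% of all genes that rose and 12.7% that fell. The rises numbered 2 without control 1. Mest read 7.45, 7.49 and 7.68 in the Myc arrays and 5.75, 6.0003 and 6.06 in controls 1 to 3 and rose by 1.60 ± 0.11 (adjusted p = 1.12e-07), while Peg3, Ndn and Nnat fell, with differences of -1.47 ± 0.14, -2.32 ± 0.29 and -1.04 ± 0.10. Of 37 Hox genes 2 rose and 5 fell, a share of decreases near that of all genes (12.7%). Hoxd10, Hoxd11 and Hoxd13, which lie together in the Hoxd cluster, fell, with differences of -2.21 ± 0.17, -0.82 ± 0.16 and -1.17 ± 0.13, and Hoxa11 rose by 0.59 ± 0.12. A single run of 4 neighbouring genes, called in the same direction, was found: Serpinb6b, Serpinb9, Serpinb9b and Serpinb1b, members of a cluster of intracellular protease inhibitors, changed by -3.14 to -1.48. The 3 measured Y-linked genes fell; Uty read 5.30, 5.52 and 5.41 in the Myc arrays and 7.96, 7.91 and 7.36 in controls 1 to 3 (-2.33 ± 0.14, adjusted p = 4.63e-08).

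Beyond the lists, the 15 largest rises included Mrc1, the mannose receptor, which read 8.81, 8.93 and 8.65 in the Myc arrays and 5.49, 5.08 and 5.38 in controls 1 to 3 and rose by 3.48 ± 0.16 (adjusted p = 3.37e-09). Cd109, a co-receptor that restrains TGF-beta signalling, read 8.65, 8.43 and 7.95 in the Myc arrays and 5.92, 6.11 and 5.74 in controls 1 to 3 and rose by 2.42 ± 0.23 (adjusted p = 2.83e-06). Pip5k1b, a lipid kinase, rose by 2.21 ± 0.37 (adjusted p = 3.39e-04), Nr1h5, an orphan nuclear receptor, by 2.69 ± 0.34 (adjusted p = 2.98e-05) and the histone gene H4c6 by 2.54 ± 0.25 (adjusted p = 3.97e-06). H4c6 belongs to a multigene family of near-identical copies, so its probe set may read several genes; the same holds for Prl2c5. The 15 largest decreases included Decr1, which acts in oxidation of unsaturated fatty acids, at 5.83, 6.47 and 5.81 in the Myc arrays and 10.27, 10.28 and 10.85 in controls 1 to 3 (-4.43 ± 0.23, adjusted p = 7.89e-09). Wnk3, a kinase of ion transport, read 4.37, 4.43 and 4.40 in the Myc arrays and 8.57, 8.54 and 7.71 in controls 1 to 3 and fell (-3.88 ± 0.18, adjusted p = 3.29e-09). Cav1, caveolin 1, read 5.41, 5.51 and 5.196 in the Myc arrays and 9.46, 9.40 and 8.99 in controls 1 to 3 and fell (-3.91 ± 0.21, adjusted p = 1.32e-08). The groups overlapped in none of these, which was a condition of the rule that named them.

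**Figure D4:**
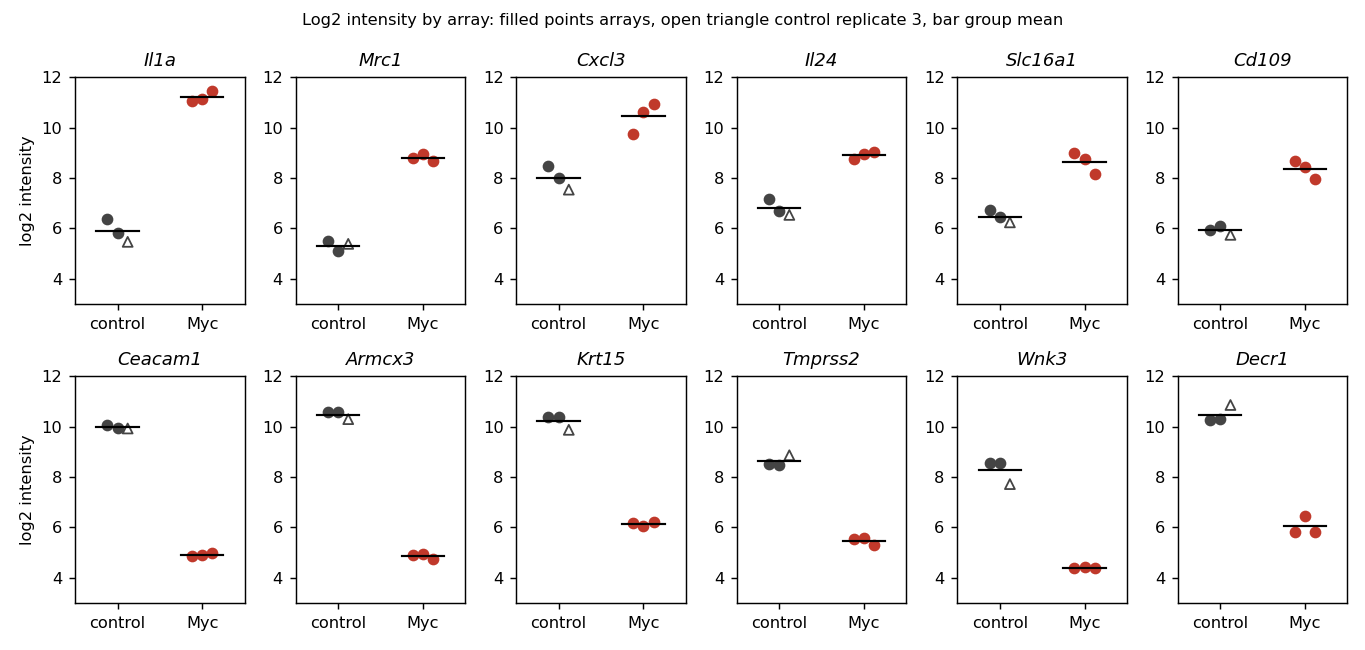
Log2 intensity of 12 genes in the 3 control and 3 Myc arrays (y axis from 3 to 12), with control 3 as an open triangle and group means as bars. The groups do not overlap for any of the 12; Il1a, for example, lies between 5.46 and 6.37 in controls and between 11.04 and 11.44 in Myc arrays.

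The Myc lines were then set against the mean of the NeuT, Ras and Src lines, which share their culture medium and line status. Here 12.1% of genes were higher and 8.43% lower in Myc lines at an adjusted p under 0.05 (20.5% together), and 178 (0.893%) and 270 (1.35%) at 2-fold or more (2.25% together). Since a mean of 3 kinds of line can be set by 1 of them, each was also tested alone, an addition chosen after the data had been seen. In all 3 tests 562 genes were higher (2.82%) and 301 lower (1.51%), and at 2-fold or more in each 39 (0.196%) and 53 (0.266%).

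Ribosome genes were among those higher in Myc lines than in other lines: 28 of 46 rRNA processing genes (median 0.40, all genes -0.01), 7 of them against each kind of line. Nop16 was higher by 0.95 ± 0.09 (adjusted p = 4.00e-06) and Gnl3 by 0.82 ± 0.09 (adjusted p = 2.36e-05). Of polymerase I and III genes 15 of 24 were higher, 9 without Myc 1, and 5 against each kind; Polr1b was higher by 1.11 ± 0.14 (adjusted p = 8.76e-05) and Twistnb by 0.78 ± 0.09 (adjusted p = 1.93e-05). For purines and pyrimidines the counts were 13 of 23 and 5, with Dctpp1 at 1.03 ± 0.07 (adjusted p = 2.79e-07) and Gart at 0.65 ± 0.07 (adjusted p = 2.42e-05). For mitochondrial genes they were 20 of 31 (11 without Myc 1) and 5, and for transporters 11 of 20 (5 without Myc 1) and 3. Eif1ad was higher by 1.16 ± 0.07 (adjusted p = 1.29e-07). Cholesterol genes were higher in 15 of 19 (median 0.69), but 1, Idi1, against each kind of line: Idi1 averaged 10.58 in Myc lines and 9.12, 8.23 and 8.93 in NeuT, Ras and Src lines.

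Against the other lines, where 12.1% of all genes were higher and 8.43% lower, 7 of 29 replication genes were higher (2 without Myc 1) and 0 lower. Of 22 mitosis genes 1 was higher and 0 lower, and of 24 G1/S genes 3 were higher and 4 lower. Medians were 0.06, 0.05 and 0.03. Pola2 was higher than in each kind of line (0.84 ± 0.12, adjusted p = 1.57e-04), whereas Prim1 averaged 10.51 in Myc lines and 10.59 in NeuT lines. Rbl1 was lower than in each kind of line (-1.91 ± 0.13, adjusted p = 2.15e-07).

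Of 40 junction genes, 20 of which fell against control, 24 were higher in Myc lines than in the mean of the other lines and 1 was lower, but 3 were higher against each kind of line. Epcam averaged 9.83 in Myc lines, 9.38 in NeuT, 9.11 in Src and 4.44 in Ras lines; the differences were 0.45 ± 0.08, 0.72 ± 0.08 and 5.39 ± 0.08, all past the threshold. Cdh1 averaged 9.58, 10.45, 9.94 and 5.91 in the same order, so that NeuT and Src lines were above Myc lines and Ras lines far below. Mesenchymal genes were lower here too. Of the 20, 13 were lower in Myc lines, 7 against each kind. Vim read 7.43, 7.67 and 7.54 in Myc arrays, 10.72, 10.91 and 10.74 in NeuT, 12.19, 11.94 and 12.19 in Ras and 9.35, 9.38 and 9.42 in Src arrays. Every Myc array was below every other array of the series for Vim. Tnc, tenascin C, read 5.56, 5.52 and 5.25 in Myc arrays and averaged 11.20, 6.82 and 10.06 in NeuT, Ras and Src lines. Snai2 and Sparc were also lower than in each kind of line, with differences from their mean of -2.78 ± 0.11 (adjusted p = 1.13e-09) and -2.05 ± 0.10 (adjusted p = 1.49e-08).

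Cav1 gave the largest decrease by this test among genes named by rule. Naming a gene by this difference required no overlap with the arrays of the other lines. It read 5.41, 5.51 and 5.196 in Myc arrays, 9.93, 9.92 and 9.93 in NeuT, 10.26, 9.14 and 9.47 in Ras and 10.21, 10.26 and 10.35 in Src arrays, and the lowest control read 8.99, so that among the 15 arrays the 3 Myc arrays alone were low. Gpc4, a heparan sulphate proteoglycan, read 5.35, 4.93 and 5.62 in Myc arrays, against means of 7.996, 8.42 and 8.88. Osmr and Il6st were lower than in each kind of line, with differences from their mean of -2.11 ± 0.17 (adjusted p = 1.25e-06) and -0.83 ± 0.09 (adjusted p = 1.61e-05). Of 16 ERK genes 11 were lower and 1 higher, but 2, Dusp6 and Spred2, against each kind of line; Dusp6 differed by -1.47 ± 0.10 (adjusted p = 2.53e-07). Integrins Itgav and Itgb1 were lower than in each, with differences from their mean of -0.70 ± 0.11 (adjusted p = 2.74e-04) and -0.32 ± 0.07 (adjusted p = 0.00543).

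Several genes stood above all other lines. Mrc1 read 8.81, 8.93 and 8.65 in Myc arrays and averaged 7.43, 5.79 and 5.50 in NeuT, Ras and Src lines. Nr1h5 read 9.30, 9.43 and 8.97, against 6.80, 5.06 and 6.73, 5.26, 4.84 and 4.86 and 6.91, 7.09 and 7.05. No array of another line reached the lowest Myc array for either gene. That was a condition for naming a gene by its difference from the other lines. Cxcl3, Il1rn, Smox and Mest were higher than in each kind of line as well, by 1.82 ± 0.34 (adjusted p = 0.0015), 1.15 ± 0.12 (adjusted p = 8.86e-06), 1.17 ± 0.10 (adjusted p = 1.86e-06) and 1.55 ± 0.09 (adjusted p = 3.90e-08) over their mean. The Y-linked Eif2s3y, a subunit of initiation factor 2, read 6.298, 7.204 and 7.38 in Myc arrays and averaged 3.37, 3.47 and 3.62 in the other lines and 8.53 in controls, so Myc lines lay between them.

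**Figure D5:**
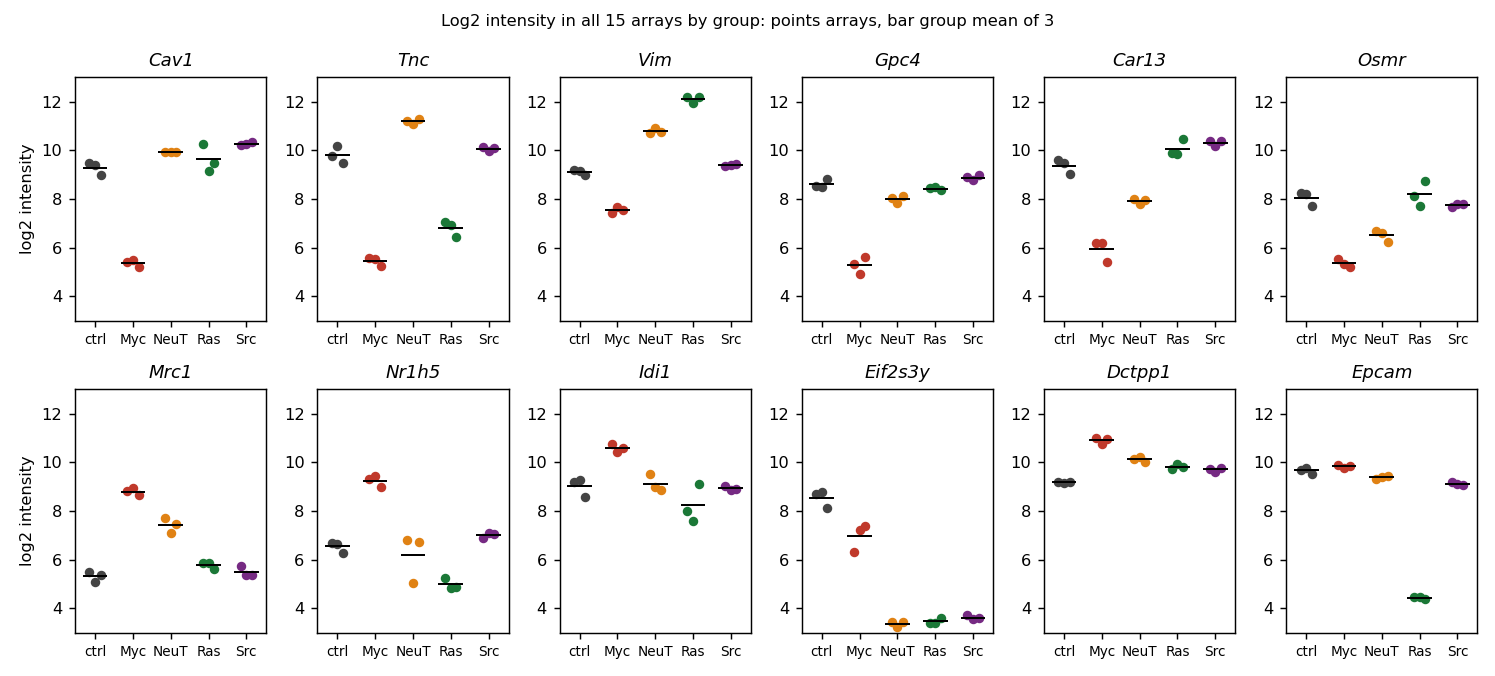
Log2 intensity of 12 genes in all 15 arrays by group (y axis from 3 to 13), with points for arrays and bars for means of 3. Cav1, Gpc4 and Vim are lowest in Myc arrays, Mrc1, Nr1h5 and Idi1 are highest in them, and Epcam sets Ras arrays, at a mean of 4.44, apart from all others.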

How the data were processed

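RNA of 15 mouse prostate epithelial samples (5 groups of 3) was amplified with the WT-Ovation Pico system, biotin-labelled and hybridised, per the labels. The authors deposited log2 intensities, already normalized. The submitters' processing notes name RMA and Affymetrix Expression Console 1.1 without saying what each did. The genome build is not given in the sources used here. The 3 arrays a group limit the precision.

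Of 35556 probe sets, 21789 had 1 gene, 1621 several and 12146 none. For 999 genes with several single-gene probe sets the one with the highest mean was used, giving 19938 genes; 21698 probe sets matched RefSeq and 0 symbols changed. All 15 arrays entered a single linear model with a mean for each of the 5 groups, in limma 3.58.1 (lmFit, eBayes; R 4.3.3), with two-sided p-values adjusted by Benjamini-Hochberg and no filter on low values. Summaries and plots used matplotlib 3.10.9, numpy 2.4.6 and pandas 2.3.3 under Python 3.11.15. The median over all gene values was 6.47. No background signal was analysed here, and low levels may be close to it.

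The groups, the 51 gene lists (42 pathway and 9 marker lists) and the rules were chosen with earlier results of these data known. Named genes were the 15 largest changes in each direction past the threshold with all controls and with controls 1 and 2, without overlap of arrays, with a higher group mean at or above 6.47, not dropped for control 3 and not predicted genes; up to 5 members a list and direction by smallest p; all Myc network and CDK inhibitor genes; every changed Hox, imprinted, BEX, TCEAL or ARMCX gene; and 8 in each direction against the other lines. The 8 in each direction against the other lines also had to show no overlap with the arrays of those lines. Alternatives covered controls, scaling, low values, probe sets, samples, variance model, array weights, replicate block, fold minimum and leaving out each array. The fit was tested on simulated data.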

Additional observations from a re-analysis of the deposited data

Results flagged for a closer look

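The genes below differed between the Myc lines and the mean of the NeuT, Ras and Src lines by a test of that difference (limma, adjusted over all genes; log2, Myc minus other lines), so that their change from control was not shared alike by the oncogene lines. Lower in Myc lines were Cav1 (-4.57), Tnc (-3.91), Car13, a carbonic anhydrase (-3.50), Armcx3 (-3.47), Vim (-3.21), Scd1 (-3.14), Gpc4 (-3.13), Slfn9, a Schlafen family gene (-3.10), Decr1 (-2.82) and Bex1 (-2.19). Armcx3 and Bex1 were not lower than in each kind of line.

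Higher in Myc lines were Adtrp (3.85), Eif2s3y (3.47), Nr1h5 (3.17), Mrc1 (2.56), Pate14 (2.51), Il18r1 (2.32) and Il1a (2.24). Adtrp, which breaks down a class of hydroxy fatty acid esters, is also at least 2-fold higher in control 3 than in controls 1 and 2. Its rise over control (2.19) did not pass the threshold without control 1, without control 2 or without any single Myc array. Eif2s3y and Il18r1 fell against control yet were higher than in the other lines. Il1a and Pate14 were not higher than in each kind of line.

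Outside the comparisons were the probe sets that name no gene or more than 1. Of them, 173 were called higher in the Myc arrays than in controls, 117 of 12146 with no gene and 56 of 1621 with several. Called lower were 570 with no gene and 29 with several.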

How the results depend on the processing

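All 6 counts of called genes (Myc lines against control and against the other lines; higher, lower and together) stayed within 1.5 times their value under every alternative run except the one with no fold minimum. That gave 3166 higher, 2533 lower and 5699 in all against control, and 2416, 1680 and 4096 against the other lines. The balance of directions against control depended on dim genes. Among genes at or above the median level, higher calls went from 570 to 536 and lower calls from 718 to 482, so that higher calls were the more numerous. Leaving out single arrays gave 1214 to 1423 genes against control (519 to 628 higher, 691 to 816 lower) and 418 to 470 against the other lines (169 to 195 and 249 to 286); for the latter, leaving out NeuT, Ras or Src arrays was added after the data had been seen. Replicate numbers are shared between groups. Over all genes, deviations of Myc and control arrays from their group means correlated by 0.057, 0.023 and 0.074 for numbers 1 to 3. NeuT, Ras and Src arrays were not compared in this way, and the control deviations are set largely by control 3. These values therefore do not decide whether the numbers pair the arrays. With a replicate block 1290 genes were called against control (570 higher, 720 lower) and 449 against the other lines. The median difference of 2 marker lists changed sign: kidney tubule markers had 0.0842 with controls 1 and 2 and dropped genes and 0.0272 without control 3, and endothelial markers 0.0112 and 0.0064, and their ranges without single controls were -1.5511 to 0.0272 and -0.2742 to 0.0064; both lists were high in control 3. Of 331 named genes, 311 passed the threshold, 42 of these lost it in at least 1 alternative, 9 others gained it and 0 reversed. Scaling moved the median of all genes from 0.0286 to at most 0.0799.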
